A study of Mus musculus with 2 samples.

Results

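The complement genes C1qa, C1qb, C1qc, C3, C4b, Cfb, Serping1, C3ar1 and C5ar1 were read out by single-cell RNA-seq of mouse periodontal tissue, the gingiva and alveolar bone surface around the teeth. They were picked by symbol, with earlier results of these data known, and are 9 of the 31053 genes in the count tables. One library came from C57BL/6 WT mice aged 8 weeks with ligature-induced periodontitis (LIP), in which a thread tied around a tooth leads to inflammation and bone loss, taken 7 days after the ligature was placed. The other came from untreated C57BL/6 WT mice of the same age (control). Each library pooled 5 mice, so no replicate check or test between LIP and control was possible. The 95% intervals below cover counting error within these 2 libraries only, and not the spread between mice.

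Complement is a cascade of plasma and tissue proteins that tags microbes and debris. C1q, built from the chains of C1qa, C1qb and C1qc, binds targets and activates the proteases C1r and C1s, which cut C4 and C2 to form an enzyme that cleaves C3. Factor B, made from Cfb, carries the alternative route that amplifies C3 cleavage. The inhibitor of C1r and C1s is the product of Serping1, and the released fragments C3a and C5a signal through the receptors of C3ar1 and C5ar1. The liver supplies most plasma complement, while tissue macrophages are a well known source of C1q.

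Cells were kept with 200 to 7500 genes, at most 60000 UMIs (counted molecules) and at most 10% mitochondrial UMIs, which left 936 of 1212 barcodes in LIP and 883 of 1169 in control. The kept cells held 10560109 UMIs in LIP and 13407122 in control, with medians of 5595 and 10845 per cell. The libraries shared 1 barcode among kept cells. Cell classes were named "-like" from marker genes, and no complement gene was used to form or name them. Neutrophil-like cells were 327 in LIP and 51 in control, macrophage-like cells 86 and 61, fibroblast-like cells 24 and 86, bone-forming-like cells 40 and 37, mural-like cells (pericytes and smooth muscle) 45 and 46, and Schwann-like cells 102 and 37. The leading genes went with these names, for example Clec3b and Dpt in fibroblast-like cells and Rgs5 or Myh11 in mural-like cells. The macrophage-like class was mixed, however. In LIP against control, the summed levels of its marker lists were 1164 and 65.9 CPM (UMIs per 1000000 UMIs of a class) for osteoclasts, 310.2 and 1284 CPM for dendritic cells and 1240 and 247 CPM for neutrophils, beside 6620 and 4334 CPM for macrophages. Other lists also differed in this class, with bone-forming markers at 2288 and 77.2 CPM and mast cell markers at 71.8 and 951 CPM. Clusters with few UMIs stayed unnamed, with 69 cells in LIP and 20 in control.

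The C1q genes lie next to each other on chromosome 4, all on the minus strand and within 18675 bases (GRCm38, GENCODE). C4b and Cfb lie on chromosome 17, on the minus strand, with a gap of 112491 bases between them. RefSeq start-site sequence (GRCm38.p6) was given for 5 of the 9 genes. The 200 bases before the start were searched on both strands for AGGAAG (an ETS-family core), TTGCNNAA (a C/EBP motif) and TTCNNNGAA (a STAT motif), which occurred in 24.7%, 7.47% and 5.49% of 32851 promoters of the same length. The sequences of C1qb and C1qc are shown because both transcripts lay in the same cells, and those of C3 and C5ar1 because these genes shared neutrophil-like cells. Capitals mark a motif match, and each sequence runs 5′ to 3′ along the gene.
C1qb: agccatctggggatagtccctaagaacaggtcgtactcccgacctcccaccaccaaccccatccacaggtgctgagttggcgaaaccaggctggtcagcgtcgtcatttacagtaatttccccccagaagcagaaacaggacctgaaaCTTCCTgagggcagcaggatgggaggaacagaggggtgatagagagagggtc
C1qc: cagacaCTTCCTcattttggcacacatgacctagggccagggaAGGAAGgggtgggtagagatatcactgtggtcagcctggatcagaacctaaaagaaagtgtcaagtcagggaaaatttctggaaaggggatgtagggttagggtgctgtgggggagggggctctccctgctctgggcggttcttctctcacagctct
C3: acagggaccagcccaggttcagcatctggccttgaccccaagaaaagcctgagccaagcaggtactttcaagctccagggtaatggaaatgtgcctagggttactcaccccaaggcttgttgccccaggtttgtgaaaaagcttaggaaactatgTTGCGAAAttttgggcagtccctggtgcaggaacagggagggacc
C5ar1: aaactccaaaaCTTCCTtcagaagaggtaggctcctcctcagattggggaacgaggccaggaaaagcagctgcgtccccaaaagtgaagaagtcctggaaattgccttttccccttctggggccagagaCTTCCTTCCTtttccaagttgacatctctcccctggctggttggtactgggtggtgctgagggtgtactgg
The C1qb window (chr4:136886201-136886400, minus strand) held the ETS core 52 bases before the start. The C1qc window (chr4:136892915-136893114, minus strand) held it 194 and 157 bases before the start. The C5ar1 window (chr7:16259339-16259538, minus strand) held it 189, 71 and 67 bases before the start, the last pair overlapping. The C3 window (chr17:57228137-57228336, minus strand) held the C/EBP letters 45 bases before the start. The C3ar1 window held none of these letters.

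Over all kept cells, Serping1 was the most counted of the 9 genes, with 2203 UMIs in LIP and 2692 in control. C3ar1 was the least counted, with 136 and 32. Each gene was concentrated in a few classes, as the plot of levels by cell class shows. The C1q chains and C3ar1 were found in macrophage-like cells, and C5ar1 in neutrophil-like and macrophage-like cells. C3 was found in fibroblast-like, neutrophil-like, macrophage-like and bone-forming-like cells, and C4b in Schwann-like and fibroblast-like cells. Cfb lay chiefly in fibroblast-like, macrophage-like and vascular endothelial-like cells, and in control also in lymphatic endothelial-like cells. Serping1 lay chiefly in fibroblast-like and other stromal or endothelial cells. T-like, B-like and erythroid-like cells held at most a few UMIs of any of the 9.

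**Figure D1:**
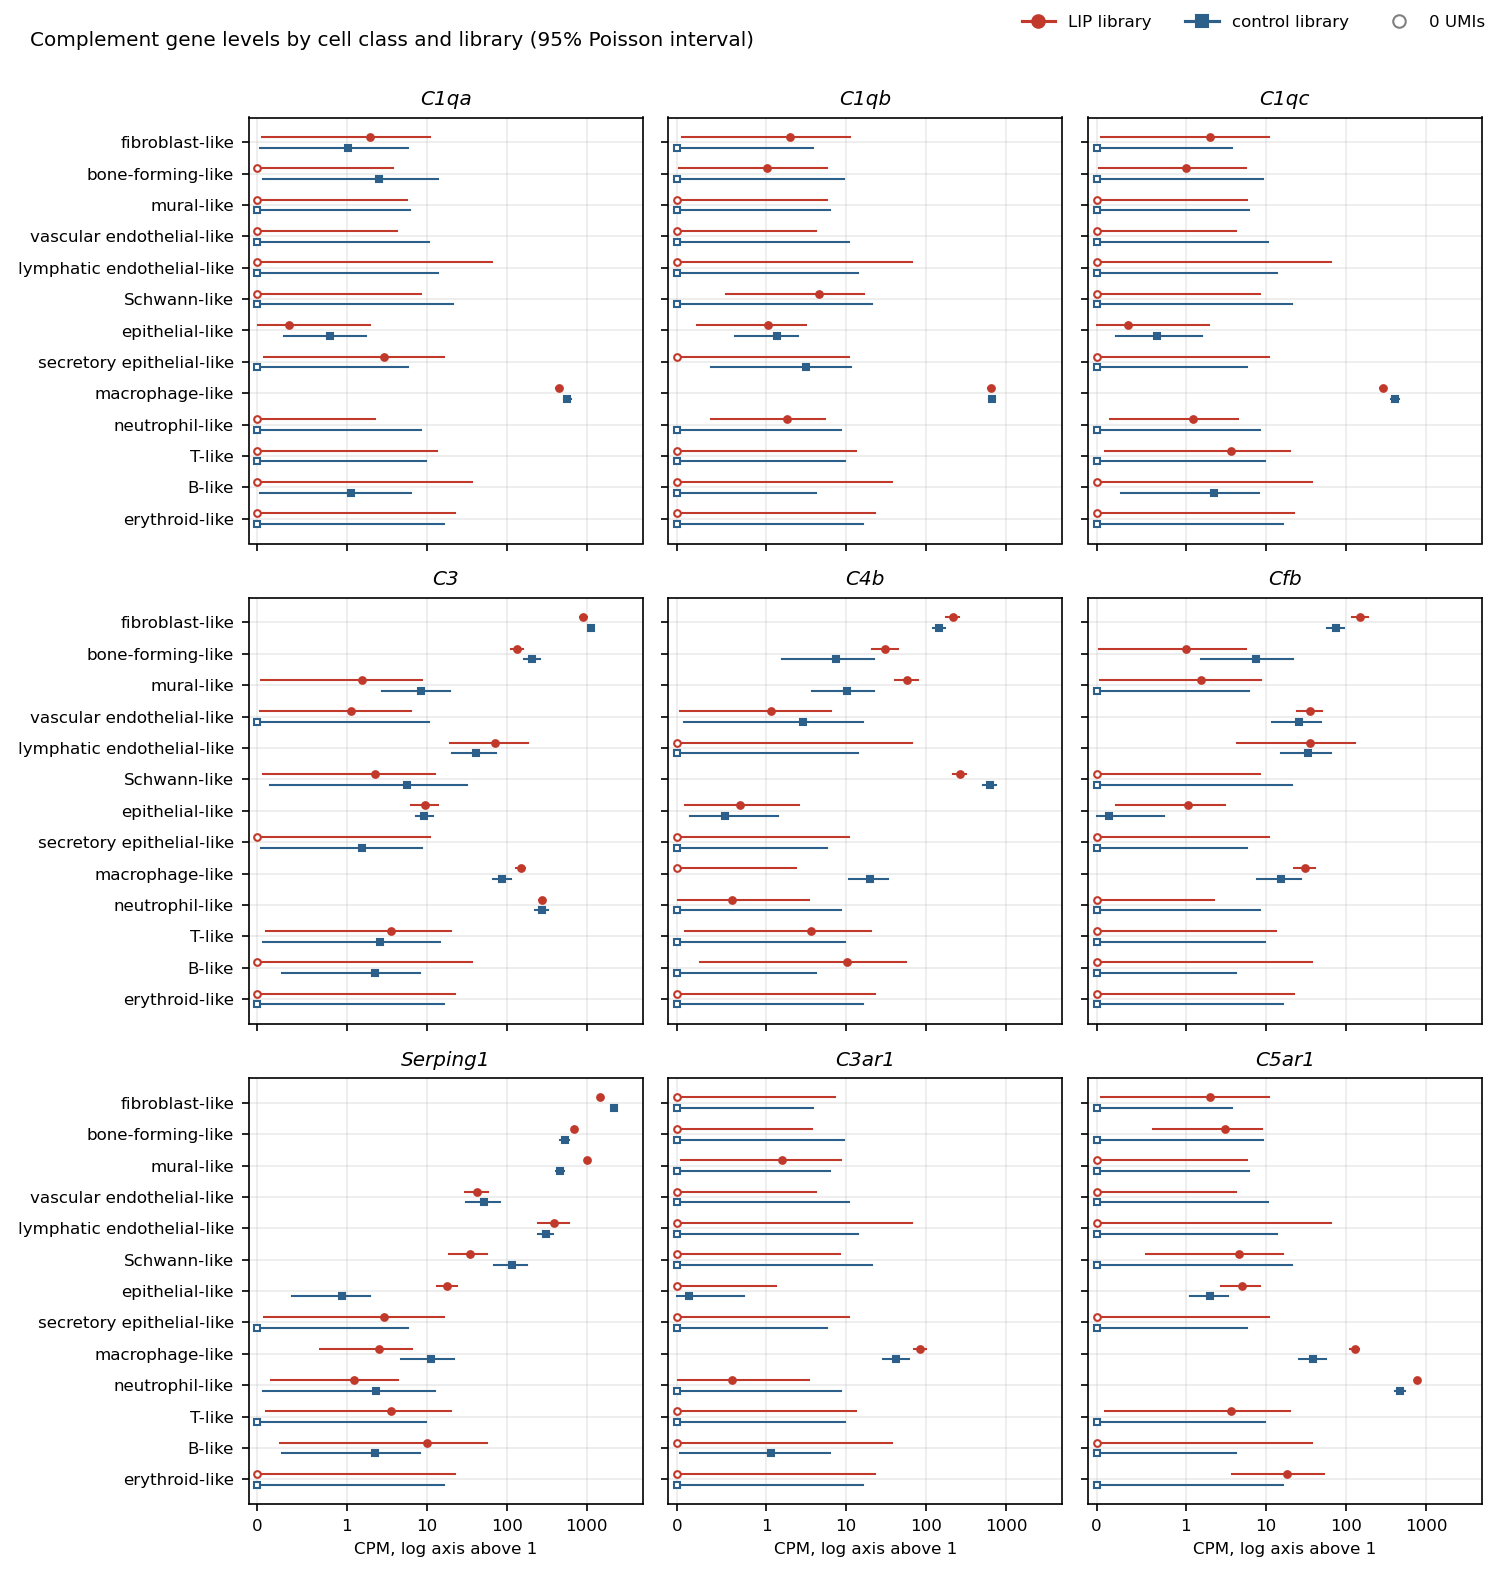
Levels of the 9 complement genes in CPM (horizontal, log axis above 1) in 13 cell classes (vertical), for LIP (circles) and control (squares), with 95% Poisson intervals as lines and open symbols for 0 UMIs. C1q and C3ar1 stand out in macrophage-like cells, C5ar1 in neutrophil-like and then macrophage-like cells, C3 in fibroblast-like, neutrophil-like, bone-forming-like and macrophage-like cells, C4b in Schwann-like and fibroblast-like cells, and Cfb and Serping1 in fibroblast-like cells.

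C1qb was the highest C1q chain in macrophage-like cells, at 635 CPM (95% interval 596 to 676) in LIP and 661 CPM (602 to 723) in control. C1qa was at 443 CPM (411 to 478) in LIP and 571 CPM (517 to 629) in control. C1qc was at 289.7 CPM (264 to 318) and 411 CPM (365 to 461). Macrophage-like cells held 97.7% of all C1q UMIs of the LIP library and 97.5% of those of the control library. The other named classes together held 19 C1q UMIs in LIP and 28 in control, and the unnamed cells 31 and 2, so that C1qb was at 62.9 CPM in the unnamed LIP cells, with 12 of its 13 UMIs in 1 cell. A C1qb UMI was found in 9 of 247 control epithelial-like cells (3.64%, median 29223 UMIs per cell) against 14 of 61 control macrophage-like cells (23.0%, median 12447 UMIs). Within the class, C1qa was lower in LIP by 0.36 on the log2 scale (log2 ratio -0.36, 95% interval -0.54 to -0.18) and C1qc had a log2 ratio of -0.51 (-0.72 to -0.29). For C1qb the interval included 0 (-0.06, -0.22 to 0.10), and the value was 0.10 with TMM scaling, which trims extreme genes. Without integration of the libraries, the class held 51 LIP and 12 control cells and the log2 ratios were -3.71, -2.88 and -3.48 for C1qa, C1qb and C1qc. As means over cells, which weight each cell alike, the log2 ratios were -1.17 for C1qa, -0.56 for C1qb and -1.03 for C1qc.

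Cell by cell, C1q lay in few cells of the macrophage-like class, and those mostly held all 3 chains. All 3 chains were detected in 11 of 86 LIP cells (12.8%, exact Clopper-Pearson interval 6.56 to 21.7%) and in 9 of 61 control cells (14.8%, 6.98 to 26.2%). No chain was detected in 68 and 46 cells, and 1 or 2 chains in 7 and 6 cells. The cells with all 3 chains held 99.1% of the C1q UMIs of the class in LIP and 93.9% in control. The 3 cells with the most C1q UMIs held 64.1% and 66.4%, so the class levels rest on few cells. Across the cells of a library, which share depth and class, Pearson's r between the chains on log2(CPM + 10) was 0.95 to 0.96 in LIP and 0.89 to 0.97 in control. The median depth of cells with all 3 chains was 28704 UMIs in LIP and 10769 in control, and that of cells without a chain was 14485.5 and 11986.

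**Figure D2:**
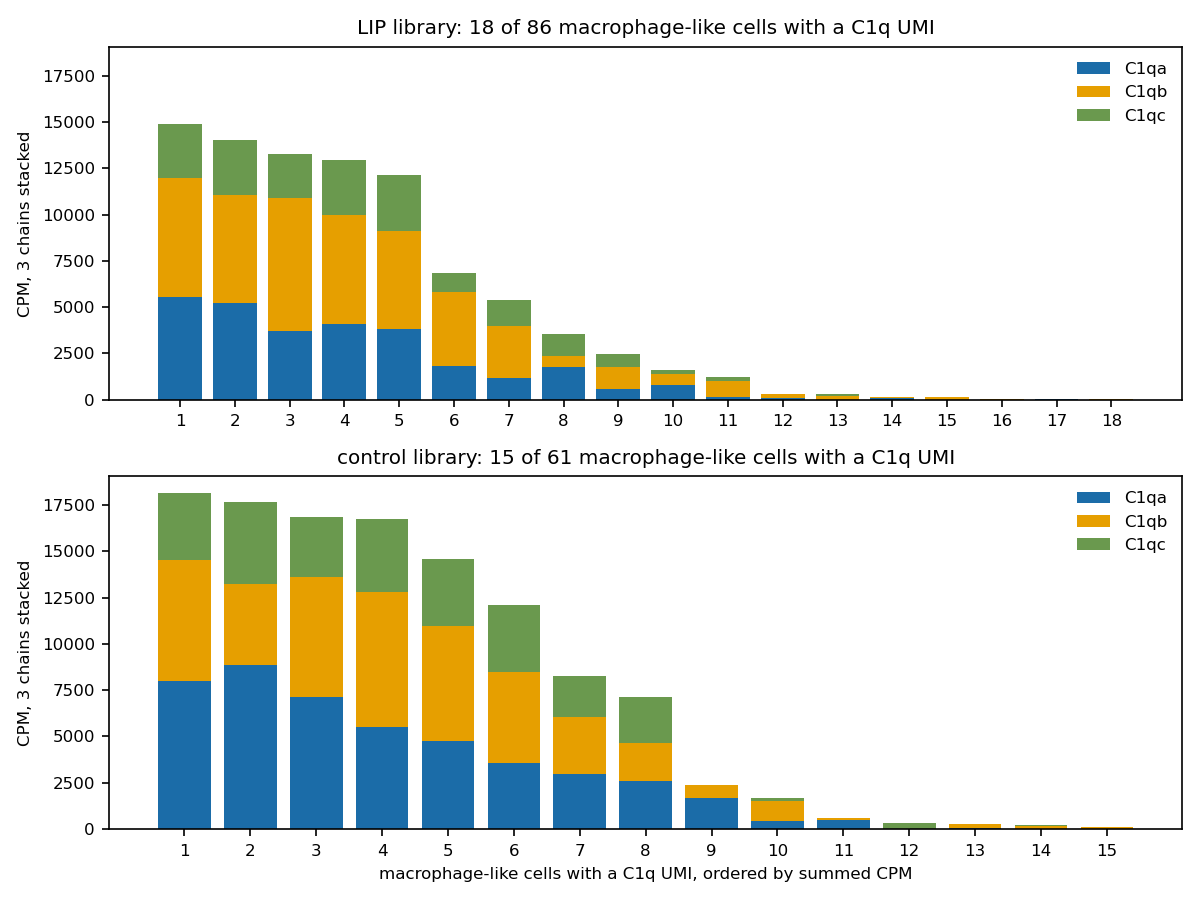
Summed CPM of C1qa, C1qb and C1qc (stacked bars) in each macrophage-like cell with a C1q UMI, ordered by the sum, for LIP (top) and control (bottom). The 18 LIP cells and 15 control cells shown fall from high levels to near 0, and the remaining 68 and 46 cells held none.

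The cells with all 3 chains and those with none also differed in other genes, of which those named here were chosen after their values were seen. Of the 15 macrophage markers, 12 were higher in the cells with all 3 chains in LIP and all 15 in control. In LIP, Cd163 and Folr2 counted among the 12 with only 1 UMI against 3 UMIs each. For this list and those below, the share of all genes higher on either side was not computed. Among them Ms4a7 was at 530.3 CPM against 59.8 CPM in LIP, and at 962 CPM against 1 UMI in control. F13a1 went the other way in LIP, at 60.2 CPM against 351 CPM, and was at 1150.3 CPM against 209.7 CPM in control. Of the dendritic cell markers with a UMI, 9 of 11 were higher in the cells with no chain in LIP and 7 of 10 in control. The LIP count includes Fscn1, at 0 UMIs against 1 UMI, and Xcr1, at 7.52 CPM (2 UMIs) against 7.80 CPM (9 UMIs). It also includes Ccl22 and Zbtb46, with 0 UMIs against 7.80 CPM and 8.67 CPM, where 0 counts allow up to 11.3 CPM. Cd209a was at 0 UMIs against 435 CPM in control, but at 120.3 CPM against 113 CPM in LIP. Of the osteoclast markers with a UMI, 4 of 5 were higher in the cells with no chain in LIP, while all 3 were higher in the cells with all 3 chains in control. The control count rests on few UMIs, with 1 UMI against 1 UMI for Ctsk and 2 UMIs against 6 UMIs for Dcstamp. Acp5, an osteoclast enzyme gene, was at 319.7 CPM against 932 CPM in LIP and at 144 CPM against 2 UMIs in control. Of the monocyte genes, Plac8 and Ly6c2 were higher in the cells with no chain in both libraries. Plac8 had 0 UMIs against 1387 CPM in LIP and 1 UMI against 893 CPM in control. Ly6c2 had 0 UMIs against 543 CPM in LIP and 0 UMIs against 397 CPM in control. Ccr2 was mixed, at 504 CPM against 350.3 CPM in LIP and at 413 CPM against 441 CPM in control. C3ar1 was higher where C1q was found, at 192 CPM (143 to 252) against 56.4 CPM (43.5 to 71.8) in LIP and 261 CPM (175 to 374) against 1 UMI in control.

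C3, the central component of the cascade, was highest in fibroblast-like cells, at 908 CPM (826 to 995) in LIP and 1141 CPM (1074 to 1210.1) in control. A C3 UMI was found in 11 of 24 LIP cells and 56 of 86 control cells. The log2 ratio was -0.33 (-0.49 to -0.17), and -1.48 with at most 5% mitochondrial UMIs. The 24 LIP fibroblast-like cells held 34.9% of the library's C3 UMIs, and the 86 control cells 75.6%. Neutrophil-like cells came next, at 276 CPM (251 to 303) in LIP and 275.5 CPM (228 to 329.7) in control, a log2 ratio of 0.00 (-0.29 to 0.31). They held 34.4% of the C3 UMIs in LIP and 8.21% in control. A C3 UMI was found in 46.5% of LIP neutrophil-like cells, against 6.52% of LIP epithelial-like cells, which were deeper (medians 3855 and 29387 UMIs).

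Within the neutrophil-like class, C3 was higher in the Ltf-led sub-cluster, whose leading genes Ltf, Ngp and Camp encode granule proteins of younger neutrophils. There it was at 449 CPM (393 to 509.8) in LIP and 368 CPM (299 to 449) in control. In the Acod1-led sub-cluster it was at 193 CPM (168 to 221) and 127 CPM (78.4 to 194). The log2 ratio between the sub-clusters, Acod1-led over Ltf-led, was -1.21 (-1.49 to -0.94) in LIP and -1.54 (-2.29 to -0.85) in control. The Ltf-led cells were 33 of 327 in LIP and 17 of 51 in control. The log2 ratio of LIP over control was 0.29 (-0.06 to 0.64) in the Ltf-led and 0.61 (-0.04 to 1.33) in the Acod1-led cells.

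In macrophage-like cells C3 was at 149 CPM (130.2 to 169) in LIP and 88.4 CPM (67.9 to 113) in control, a log2 ratio of 0.75 (0.34 to 1.18), which was -0.49 without integration. It was found in 48 of 86 and 12 of 61 cells. At 1000 UMIs per cell, which left out 2 and 6 cells, the shares were 15.5% and 7.27%. Neutrophil markers moved the same way in this class (above), and their part in the C3 value was not tested. In bone-forming-like cells C3 was at 135 CPM in LIP and 207 CPM in control (log2 ratio -0.61, -1.02 to -0.20), and 1 LIP cell held 72 of the 132 UMIs. Without the top cell of each library, this log2 ratio was -1.24 (-1.79 to -0.70).

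C4b, the component cut by C1s, was highest in Schwann-like cells, at 263 CPM (217 to 316) in LIP and 621 CPM (509 to 749) in control. Its lead over fibroblast-like cells was a log2 ratio of 2.09 (1.71 to 2.46) in control, while in LIP the interval included 0 (0.29, -0.10 to 0.69). It was detected in 27 of 102 and 14 of 37 cells, against 3 of 247 control epithelial-like cells. The log2 ratio was -1.24 (-1.63 to -0.84), and -0.42 with 15 dimensions, where the class had 109 and 56 cells. Nearly all of these UMIs lay in the Scn7a-led sub-cluster (Scn7a, Cdh19 and others, genes of non-myelinating Schwann cells), at 605 CPM (494 to 733) in LIP and 1173 CPM (962 to 1416) in control. The Scn7a-led cells were 28 of 102 in LIP and 20 of 37 in control, and within them the log2 ratio was -0.95 (-1.36 to -0.55). Fibroblast markers summed to 3468 and 3516 CPM in Schwann-like cells. The near-identical neighbour C4a was not analysed here, so C4b counts may hold reads of C4a.

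In fibroblast-like cells C4b was at 215 CPM (176 to 259.5) in LIP and 146 CPM (123 to 172) in control, a log2 ratio of 0.56 (0.19 to 0.93). One LIP cell held 41 of 108 UMIs, and without the top cell of each library the ratio was 0.25 (-0.21 to 0.70). Schwann markers summed to 1097 CPM in LIP (12 of 12 found) and 246 CPM in control (8 of 12) in fibroblast-like cells, and their part was not tested. The ratio was -0.19 without integration and -0.61 with at most 5% mitochondrial UMIs. In mural-like cells C4b was at 57.8 CPM in LIP and 10.2 CPM in control, with 27 of the 37 LIP UMIs in 2 cells. C3 and C4b overlapped in part of the fibroblast-like cells. Both were detected in 18 of 86 control fibroblast-like cells, C3 alone in 38 and C4b alone in 3. In LIP, both were detected in 7 of 24 cells, C3 alone in 4 and C4b alone in 4.

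Cfb was highest in fibroblast-like cells, at 151 CPM (119 to 189) in LIP and 74.9 CPM (58.6 to 94.4) in control, a log2 ratio of 1.01 (0.53 to 1.5). This ratio was -0.080 without integration and -0.30 with at most 5% mitochondrial UMIs, settings under which no bone-forming-like class was named and the fibroblast-like class had 65 and 61 LIP cells. Cfb was detected in 13 of 24 and 27 of 86 cells. At 1000 UMIs per cell, the shares were 8.33% and 7.06%, and at 2000 UMIs 16.7% and 8.64%. Of the fibroblast-like cells with Cfb, 25 of 27 in control and 9 of 13 in LIP also held C3. Vascular endothelial-like cells were at 35.7 CPM (24.3 to 50.7) in LIP and 26.1 CPM (11.9 to 49.5) in control. Lymphatic endothelial-like cells, 5 in LIP and 19 in control, were at 35.8 CPM (2 UMIs) and 34.0 CPM (9 UMIs). Macrophage-like cells were at 30.8 CPM and 15.4 CPM (log2 ratio 1.0, 0.03 to 2.09), with 28 of the 48 LIP UMIs in 1 cell and a ratio of 0.37 (-0.93 to 1.86) without the top cells. The read-through gene Gm20547 covers 99.4% of the Cfb gene, and the counter drops reads that fit exons of more than 1 gene, so Cfb levels can be understated in every class. Gm20547 itself had 0 UMIs.

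Serping1, the inhibitor of C1r and C1s, was the most abundant of the 9 genes in stroma. Every fibroblast-like cell held it, at 1469 CPM (1365 to 1579) in LIP and 2157 CPM (2065 to 2252) in control, a log2 ratio of -0.55 (-0.68 to -0.43). Mural-like cells showed the opposite order, at 1014 CPM (938 to 1095) in LIP and 460.3 CPM (407 to 518) in control, a log2 ratio of 1.14 (0.93 to 1.35). It was detected in all 45 LIP and 44 of 46 control mural-like cells, and the median cell was at 901 CPM in LIP and 344 CPM in control. The values were thus spread over the cells, and without the top cell of each library the ratio was 1.07 (0.85 to 1.28). At 1000 UMIs per cell, 60.0% of LIP and 26.1% of control mural-like cells held a Serping1 UMI.

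Both mural-like sub-clusters showed this order. In the Rgs5-led cells, with pericyte genes, Serping1 was at 1322 CPM (1191 to 1463) in LIP and 638 CPM (526 to 768) in control, a log2 ratio of 1.05 (0.74 to 1.37). In the Tagln-led cells, with smooth muscle genes, it was at 771 CPM (682 to 867) and 385 CPM (328 to 449.6), a ratio of 1.0 (0.71 to 1.29). Of the fibroblast marker list, 12 of 14 genes were found in mural-like cells of either library, summing to 5549.8 CPM in LIP and 3857 CPM in control, and their part in the Serping1 value was not tested. For comparison, that list summed to 81994 and 64184 CPM in fibroblast-like cells.

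Bone-forming-like cells held Serping1 at 697 CPM (646 to 752) in LIP and 526 CPM (458 to 603) in control, a log2 ratio of 0.41 (0.18 to 0.64). The fibroblast marker list, which holds collagen genes, summed to 97926 CPM and 55227 CPM in them, and the bone-forming list to 31517 CPM and 16595 CPM. Lymphatic endothelial-like cells, 5 in LIP and 19 in control, were at 393 CPM (247 to 596) and 306 CPM (243 to 380.1). In epithelial-like cells Serping1 was at 18.2 CPM (13.5 to 23.9) in LIP and 0.95 CPM (0.38 to 1.96) in control, but 46 of the 51 LIP UMIs were in 2 cells. All 14 fibroblast markers were found in the LIP epithelial-like cells, summing to 2166 CPM, and 13 in control, at 581 CPM. Their part in this value was not tested.

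C5ar1, the receptor of the chemoattractant C5a, was highest in neutrophil-like cells, at 776 CPM (734 to 819.7) in LIP and 469.98 CPM (408 to 539) in control, a log2 ratio of 0.72 (0.51 to 0.94). It was detected in 299 of 327 and 49 of 51 cells. Macrophage markers summed to 4616 CPM in LIP (9 of 15 found) and 847 CPM in control (6 of 15) in neutrophil-like cells, and their part in the C5ar1 value was not tested. In the Acod1-led cells it was at 1033 CPM (974 to 1095) in LIP and 754 CPM (628 to 898) in control, a ratio of 0.45 (0.19 to 0.73). In the Ltf-led cells it was at 238 CPM (198 to 283) and 293 CPM (232 to 366), a ratio of -0.30 (-0.72 to 0.12). C5ar1 and C3 thus had opposite orders over the neutrophil-like sub-clusters in both libraries. In macrophage-like cells C5ar1 was at 128 CPM (111 to 147) in LIP and 39.3 CPM (26.1 to 56.8) in control, a log2 ratio of 1.71 (1.13 to 2.33) that was 0.44 without integration, with a UMI in 42 of 86 and 8 of 61 cells. At 1000 UMIs per cell, the shares of macrophage-like cells with a C5ar1 UMI were 13.1% and 7.27%. The neutrophil markers that were also higher there in LIP were given above, and their part was not tested.

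**Figure D3:**
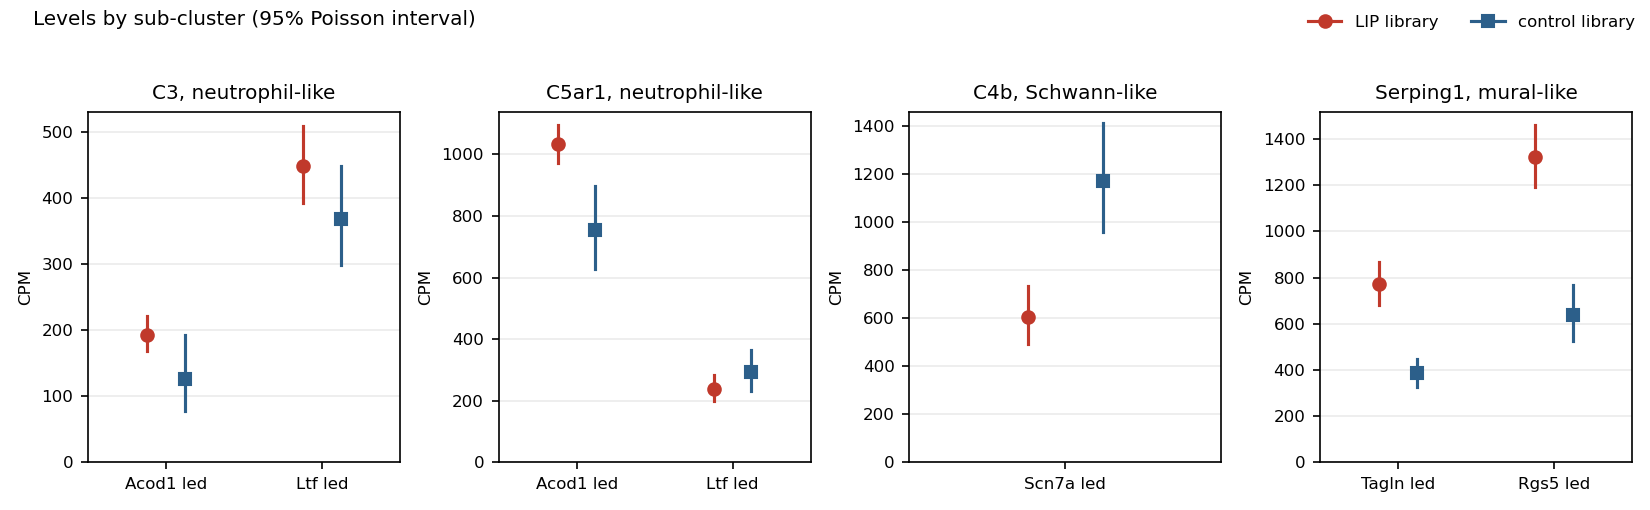
Levels in CPM (vertical, from 0) of C3 and C5ar1 in the neutrophil-like, C4b in 1 Schwann-like and Serping1 in the mural-like sub-clusters, each named by its first leading gene, for LIP (circles) and control (squares) with 95% Poisson intervals. C3 and C5ar1 were highest in different neutrophil-like sub-clusters, C4b was lower in LIP in the Scn7a-led cells, and Serping1 was higher in LIP in both mural-like sub-clusters.

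C3ar1, the receptor of C3a, was counted almost only in macrophage-like cells, which held 97.1% of its UMIs in LIP and 93.8% in control. The level was 84.6 CPM (70.8 to 100.3) in LIP and 42.1 CPM (28.4 to 60.1) in control, a log2 ratio of 1.01 (0.43 to 1.63), which was -0.079 without integration. It was detected in 28 of 86 and 6 of 61 cells, with median depths of 15552.5 and 12447 UMIs. At 1000 UMIs per cell it was found in 7 of 84 LIP (8.33%) and 2 of 55 control cells (3.64%). The order was the opposite at 2000 UMIs, with 5 of 82 (6.10%) and 4 of 47 cells (8.51%). In control, 3 cells held 70% of the 30 UMIs. Neutrophil-like cells held 1 UMI in LIP and none in control, where 0 counts allow up to 6.95 CPM.

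Over the 10 classes with at least 20 cells in each library, 20 pairs of gene and class had at least 50 UMIs. The LIP over control interval lay above 0 in 10, below 0 in 6 and included 0 in 4, as the plot of ratios shows. Without the top cell of each library, it included 0 in 6. The share of all genes with an interval that excluded 0 was not computed, so these counts cannot be called particular to complement genes. Past a difference of 2-fold after 10 CPM were added to both levels, Serping1 was higher in LIP in mural-like and epithelial-like cells, where 2.88% and 1.38% of all genes tested were. C5ar1 was so in macrophage-like cells, as were 5.82% of genes. C4b was lower past 2-fold in Schwann-like cells, as were 3.09% of genes, while 2.71% were higher. None of the 4 genes with enough UMIs in fibroblast-like cells was past 2-fold, where 2.17% of genes were higher and 2.83% lower.

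**Figure D4:**
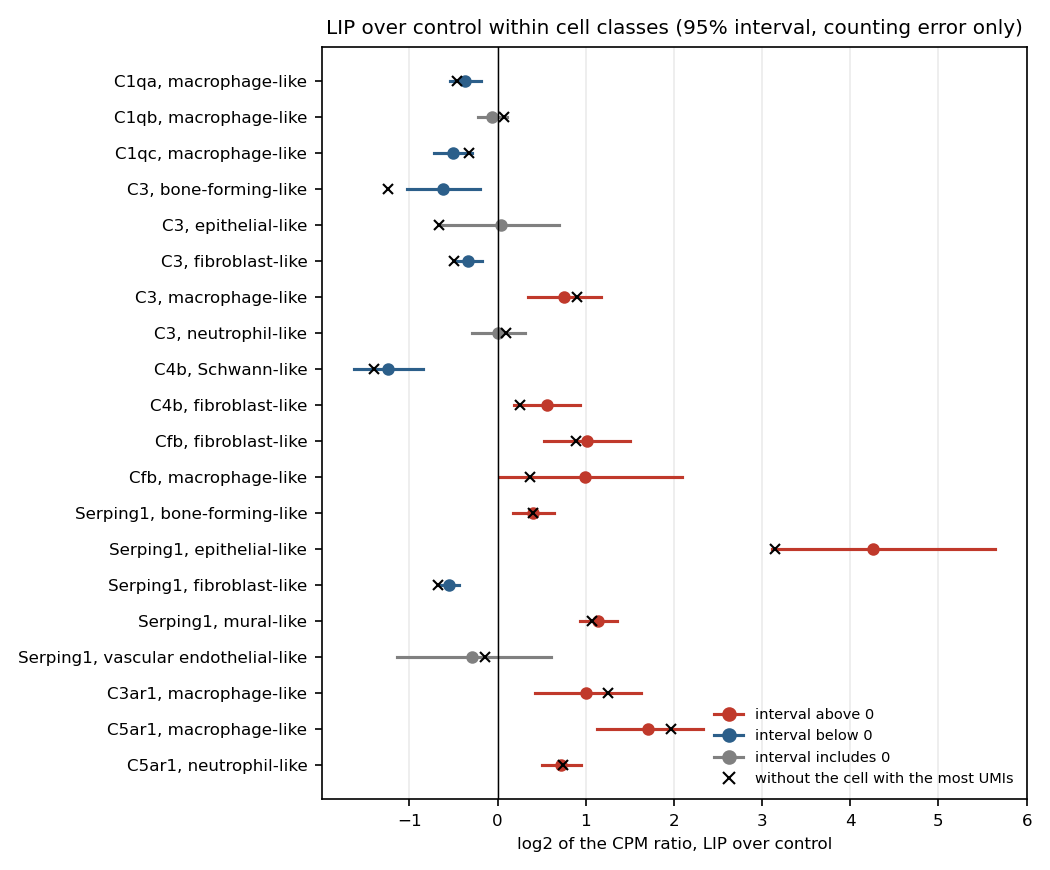
Log2 ratio of CPM, LIP over control (horizontal), for the 20 pairs of complement gene and cell class with at least 50 UMIs (vertical), with 95% intervals for counting error and crosses for the ratio without the cell with the most UMIs in each library. Serping1 lies right of 0 in mural-like cells and left of 0 in fibroblast-like cells, and C4b lies left of 0 in Schwann-like cells.

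Of 45 other complement genes on a fixed list, 22 reached 50 UMIs in at least 1 of these classes and 4 had no UMI at all. The genes of the terminal lytic steps were nearly silent. None of the 7 reached 50 UMIs, and the highest, C7, had 10 UMIs in all. Among the starters of the cascade, C1s1 and C1ra, which encode the proteases that C1q activates and Serping1 blocks, were also stromal. C1s1 was at 730.4 CPM in LIP and 626 CPM in control fibroblast-like cells (log2 ratio 0.22, 0.03 to 0.41). There 1 LIP cell held 77 of the 367 UMIs, and without the top cell of each library the ratio was 0.05 (-0.16 to 0.25). In mural-like cells C1s1 was at 511 CPM and 256 CPM (1.0, 0.72 to 1.29) and C1ra at 173 CPM and 86.3 CPM (1.01, 0.52 to 1.52). The copies C1s2 and C1rb had 1 and 2 UMIs, so little was counted for them apart. Fcnb, a secreted lectin of neutrophils, was at 109 CPM in LIP and 92.6 CPM in control neutrophil-like cells. These levels rest on 14 of 327 LIP and 3 of 51 control cells, and 1 cell held 59 of 177 and 22 of 40 UMIs. The log2 ratio was 0.23 (-0.27 to 0.77), and 0.76 (0.03 to 1.56) without the top cell of each library.

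In mural-like cells, 2 of 10 list genes with enough UMIs were past 2-fold higher in LIP and 1 was lower (2.88% of all genes were higher and 2.29% lower). The median log2 ratio of the 10, after 10 CPM were added, was 0.57, against 0.04 over all genes tested. The higher genes were Colec12, a scavenger receptor, at 67.2 CPM in LIP and 27.1 CPM in control, and Cd93 at 138 CPM and 45.7 CPM. Vascular endothelial markers in mural-like cells summed to 484 CPM in LIP (10 of 12 found) and 394 CPM in control (8 of 12). Their part in the Cd93 value was not tested. The lower gene was the lectin Colec11, at 53.1 CPM in LIP and 193 CPM in control. Vtn, which encodes vitronectin, was at 259 CPM and 401 CPM.

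In bone-forming-like cells none of 8 list genes was past 2-fold, where 3.84% of all genes were higher in LIP and 5.07% lower. Colec12 was at 215.8 CPM in LIP and 264 CPM in control (log2 ratio -0.29, -0.64 to 0.06), C1ra was at 196 CPM and 141 CPM (0.48, 0.04 to 0.93), and C1s1 was at 195 CPM and 289.7 CPM (-0.57, -0.91 to -0.22). The intervals of C1ra and C1s1 lay on opposite sides of 0. Without the top cell of each library, that of C1ra included 0 (0.43, -0.05 to 0.93), while that of C1s1 did not (-0.55, -0.93 to -0.15). In fibroblast-like cells C1ra was at 265 CPM and 402 CPM (-0.60, -0.90 to -0.31). None of 8 list genes in fibroblast-like cells was past 2-fold (2.17% of all genes were higher in LIP and 2.83% lower).

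In macrophage-like cells 2 of 7 list genes were past 2-fold higher in LIP and none was lower (5.82% of all genes were higher and 5.06% lower). The higher genes were Itgam, at 269.8 CPM and 118 CPM, and Itgb2, at 399.9 CPM and 167 CPM, whose products form complement receptor 3. Both are also high in neutrophils, and the part of the neutrophil markers in this class (above) was not tested. Properdin (Cfp), which stabilises the C3 convertase, was at 277 CPM and 167 CPM (log2 ratio 0.73, 0.43 to 1.03). In neutrophil-like cells Itgam was at 423 CPM in LIP and 602 CPM in control, and 1 of 8 list genes was past 2-fold, Itgax with 48 and 3 UMIs, at 29.5 CPM and 6.95 CPM (log2 ratio 2.09, 0.45 to 4.41), beside the macrophage markers given above (9.58% of all genes were higher and 1.42% lower). In Schwann-like cells Cd59a, a membrane inhibitor, was at 598 CPM and 868 CPM. There 1 of 2 list genes was past 2-fold, the inhibitor Csmd1 at 91.6 CPM and 201 CPM (3.09% of all genes were lower). In epithelial-like cells 2 of 10 were past 2-fold higher (1.38% of all genes were), Clu at 53.8 CPM and 16.7 CPM and Cd93 at 22.8 CPM and 0.54 CPM. Fcnb, with 1 UMI in LIP and 141 UMIs in control (log2 ratio -5.75, -11.06 to -3.25), was lower, as were 0.503% of all genes, and neutrophil markers in that class were at 762 CPM in LIP and 8887 CPM in control. The 141 control Fcnb UMIs lay in 6 of 247 epithelial-like cells, with 41 of them in 1 cell. Vascular endothelial markers in that class summed to 241 CPM in LIP (12 of 12 found) and 10.1 CPM in control (11 of 12). The part of either list in these values was not tested. In vascular endothelial-like cells Clu was at 758 CPM and 991 CPM and Cd93 at 887 CPM and 808 CPM, and none of 6 list genes was past 2-fold (3.82% of all genes were higher in LIP and 2.24% lower). None of 4 list genes in B-like and of 2 in T-like cells was past 2-fold, where 6.02% and 7.12% of genes were higher in LIP and 6.4% and 4.76% lower. All 20 LIP B-like cells lay in the Vpreb3-led sub-cluster, with 6 control cells. The Iglc2-led and Igkc-led sub-clusters held 93 and 53 control cells and no LIP cell. B-like values of LIP and control thus come from largely different sub-clusters.

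The remaining genes among the 5 highest of the list in a class were not past 2-fold. C1qbp, a mitochondrial protein that can bind C1q, was highest of the list in epithelial-like cells, at 179 CPM in LIP and 178 CPM in control. It was at 84.0 CPM and 85.6 CPM in macrophage-like, 85.2 CPM and 78.2 CPM in vascular endothelial-like and 70.7 CPM and 92.2 CPM in B-like cells. Cr1l, a membrane inhibitor, was at 51.3 CPM and 40.0 CPM in epithelial-like, 134 CPM and 171 CPM in vascular endothelial-like and 63.9 CPM and 60.2 CPM in neutrophil-like cells. It was at 76.5 CPM and 84.6 CPM in T-like and at 50.5 CPM (5 UMIs) and 77.4 CPM in B-like cells. Cd55, another membrane inhibitor, was at 283 CPM and 228 CPM in B-like cells and at 95.5 CPM and 88.5 CPM in fibroblast-like cells. Cr2, a receptor of B cells, was at 60.6 CPM (6 UMIs) and 88.8 CPM in B-like cells. All B-like values here set the largely different sub-clusters named above side by side. Masp1, a protease of the lectin route, was at 103 CPM and 151 CPM in fibroblast-like and 97.1 CPM and 131 CPM in bone-forming-like cells. Colec12 was at 161 CPM in both libraries in fibroblast-like cells, and Clu at 62.4 CPM and 116 CPM in bone-forming-like cells. Cd59a was at 22.1 CPM and 34.3 CPM in epithelial-like and 82.9 CPM and 122 CPM in vascular endothelial-like cells. Itgb2 was at 434 CPM and 551 CPM in neutrophil-like and 226 CPM and 156 CPM in T-like cells, and Cfp at 106 CPM and 148 CPM in neutrophil-like cells. Itgax was at 114 CPM and 99.6 CPM in macrophage-like cells.

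**Figure D5:**
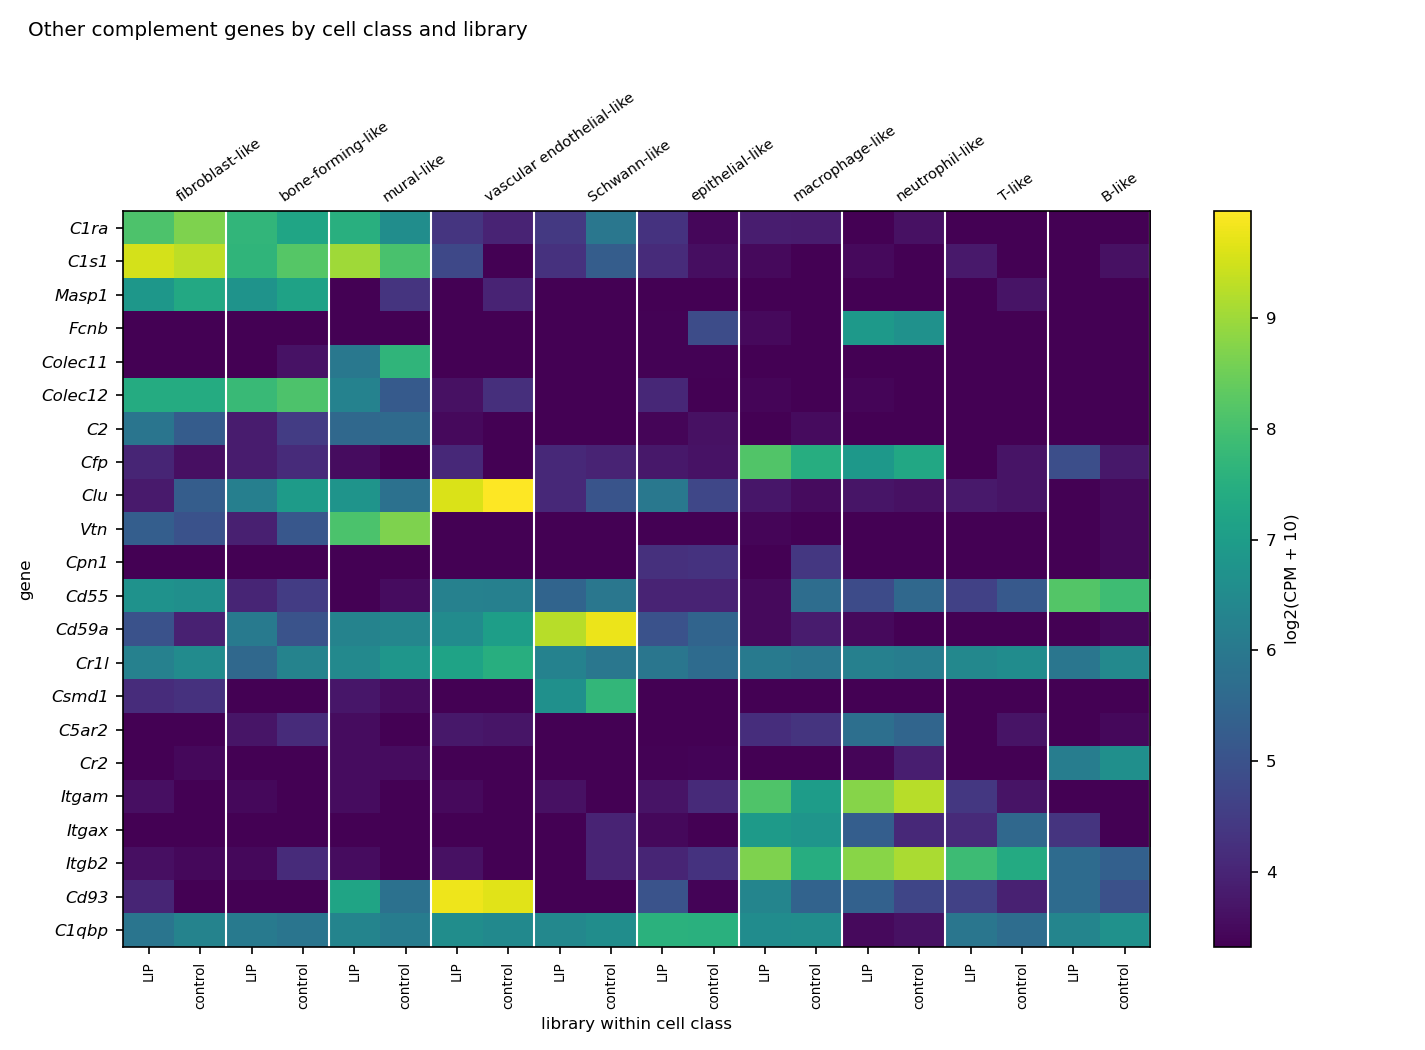
Heat map of log2(CPM + 10) for the 22 other complement genes with at least 50 UMIs in a class (vertical), by cell class and library (horizontal). C1ra and C1s1 are bright in fibroblast-like, bone-forming-like and mural-like cells, Itgam and Itgb2 in myeloid cells, and Clu and Cd93 in vascular endothelial-like cells.

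The genes whose pattern was most like each of the 9 were sought among 9820 genes over 20 groups of class and library, by Pearson's r of log2(CPM + 10), as a description. The groups share libraries and depth. For all 3 C1q chains these were Aif1 (r = 0.99 or more) and Ms4a7 (0.99), both genes of macrophages. The third was Mgl2 for C1qa and C1qc (both 0.99) and F13a1 for C1qb (0.98). C3ar1 was most like Fcgr1 (0.99), Trem2 and Clec4a1 (both 0.98), and C5ar1 most like Lilrb4a, Cd300ld and Tlr13 (all 0.99). Serping1 was most like Naalad2 (0.97), Fbn1 (0.97), which encodes fibrillin, and Sod3 (0.96). C4b was most like Gfra2 (0.95), Etv1 and Prss12 (both 0.94). For C3 and Cfb, each found in several classes, the highest r values were lower, Emilin2 (0.83), Arap1 (0.83) and Pi16 (0.82) for C3 and Anpep (0.90), Rab3il1 (0.84) and Ace (0.83) for Cfb.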

How the data were processed

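Periodontal cells were profiled with the 10x Genomics 3′ v3 kit. The authors aligned and counted reads with Cell Ranger against mm10 (3.1.0 per the file headers) and deposited the UMI counts of each barcode without normalization. Cells were filtered, sums of counts per class and library were divided by the class total (CPM), and 95% intervals were exact Poisson, Clopper-Pearson or, for ratios, conditional binomial. Clusters came from Seurat 5.3.0 (integration of the 2 libraries, 1977 of 2000 variable genes after removal of 23 complement genes, 30 dimensions, resolution 0.1, sub-clusters at 0.2), and were named from 21 marker lists when at least 3 markers were over 2-fold and found in at least 25% of cells, except for shallow clusters with none among their 10 leading genes. Scrublet (scanpy 1.11.5) marked 1 LIP and 4 control cells, too few to judge doublets, and these were kept. A floor of 3 counts stands for 0. Intervals cover counting error only.

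The members and lists were chosen with earlier results of these data known. Text names the 9 genes everywhere, list genes with at least 50 UMIs in a class that were among its 5 highest or past 2-fold, and the 3 genes most like each member over classes with at least 20 cells. The intervals and the naming were tested on simulated data. These counts were drawn from the counting model of the intervals and from each cluster's own profile. They therefore do not test the intervals where UMIs lie in few cells, nor the naming on other data. Processing was varied in 16 ways, with edgeR 4.0.16 used for TMM factors only. Of the 47 listed genes, 45 were analysed, and some results are not reported here. Replicates were absent, so no test between groups was run.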

Additional observations from a re-analysis of the deposited data

Results flagged for a closer look

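Some genes had LIP over control intervals on opposite sides of 0 in different classes, and the difference between classes was not tested. Serping1 had log2 ratios of 1.14 in mural-like, 0.41 in bone-forming-like and 4.25 in epithelial-like cells, against -0.55 in fibroblast-like cells. C4b had 0.56 in fibroblast-like against -1.24 in Schwann-like cells. C3 had 0.75 in macrophage-like against -0.61 in bone-forming-like and -0.33 in fibroblast-like cells. Some of these values rest on few cells or on the processing. In LIP epithelial-like cells, the top 2 cells held 90.2% of the 51 Serping1 UMIs. C4b in fibroblast-like cells was at 0.25 (-0.21 to 0.70) without the top cell of each library. C3 in macrophage-like cells was at -0.49 without integration.

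C1q also appeared in cells outside the comparisons. The unnamed LIP cells led by Wfdc17 (38 LIP cells and 1 control cell, median 786 UMIs) held few C1q UMIs. They held C1qa at 208 CPM (8 UMIs), C1qb at 338 CPM (13 UMIs) and C1qc at 234 CPM (9 UMIs). Over all unnamed LIP cells, 1 cell held 12 of 13 C1qb UMIs, 1 held 7 of 8 C1qa UMIs and 1 held 6 of 10 C1qc UMIs.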

How the results depend on the processing

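Of 215 LIP over control values from alternatives for 20 results, 186 lay within the counting interval of the reported value and 23 outside it. The other 6 had the opposite sign to a result whose interval excluded 0. Sign changes of results whose interval included 0 were not counted among these 6. An example was C1qb in macrophage-like cells, at 0.10 with TMM scaling against -0.06. Without integration the log2 ratios were -3.71 for C1qa, -2.88 for C1qb, -3.48 for C1qc, -0.49 for C3, -0.079 for C3ar1 and 0.44 for C5ar1 in macrophage-like cells, and -1.12 for C3, -0.19 for C4b, -0.080 for Cfb and -0.79 for Serping1 in fibroblast-like cells. With at most 5% mitochondrial UMIs they were -0.16 for C1qa in macrophage-like cells, and -1.48 for C3, -0.61 for C4b, -0.30 for Cfb and -0.92 for Serping1 in fibroblast-like cells. At resolution 0.05, C1qa was at -0.56 and C1qb at -0.25, and at resolution 0.3 C1qb was at -0.23. As means over cells, C1qa was at -1.17, C1qb at -0.56, C1qc at -1.03 and C4b in Schwann-like cells at -1.74. With 15 dimensions C4b in Schwann-like cells was at -0.42. Without the top cell of each library C3 in fibroblast-like cells was at -0.50. Serping1 in mural-like cells ranged from 1.03 to 1.16 and C5ar1 in neutrophil-like cells from 0.58 to 0.87 over the alternatives that named the class, and no mural-like class was named with at most 5% mitochondrial UMIs. Under that setting and without integration, class sizes changed, and the cause of each moved value was not tested. The count of other complement genes past 2-fold in fibroblast-like cells was 1 with a minimum of 20 UMIs and 2 with no minimum, against 0, and in macrophage-like cells 4 with no minimum, against 2. The log2 ratio of TMM factors, LIP over control, which TMM scaling subtracts, was -0.20 in bone-forming-like, -0.16 in macrophage-like, -0.14 in Schwann-like and neutrophil-like, and 0.39 in B-like cells. No paired analysis was possible because each group is 1 library. Levels under 3 counts could not be told from 0 at this depth, and with 1 pool of mice per group no value has a replicate check.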

Other observations

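Barcodes that failed a filter, 276 in LIP and 286 in control, held little of most of the 9 genes. Serping1 was at 69.4 CPM in LIP and 60.3 CPM in control barcodes left out, against 209 CPM and 201 CPM in those kept. C1qb was at 4.62 CPM and 0.98 CPM, against 96.0 CPM and 36.0 CPM. Summed over all kept cells of a library, C5ar1 was at 141 CPM in LIP and 18.3 CPM in control, and C1qb at 96.0 CPM and 36.0 CPM, while Serping1 was at 209 CPM and 201 CPM. Within macrophage-like cells, C1qb had a log2 ratio of -0.06.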
